A study of Mus musculus with 6 samples.

Results

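The 10 small leucine-rich proteoglycan genes Bgn, Dcn, Lum, Fmod, Ogn, Aspn, Prelp, Omd, Kera and Podn were taken by gene name from a table of 78409 genes, in which each name occurred once. The cells were nephrogenic stroma, the mesenchyme that surrounds forming nephrons, isolated at embryonic day 18 from wild-type mice of the CD1 stock by pooling kidneys and sorting cells positive for PDGFRa, a growth factor receptor. They grew for 18 h on glass coverslips bearing a layer of the silicone PDMS. The coverslips had been incubated in bovine fibronectin at 50000 ng/mL (high adhesion, 3 libraries) or at 500 ng/mL (low adhesion, 3 libraries), and 3 litters each supplied 1 library per condition. All 6 libraries thus share genotype, age, sort and culture time, and each is a pool of kidneys. The comparison addresses whether these matrix genes differ between the fibronectin concentrations, with the libraries paired by litter.

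Small leucine-rich proteoglycans are secreted matrix proteins whose curved core of leucine-rich repeats binds collagen fibrils. Most carry chondroitin, dermatan or keratan sulphate chains, and by binding collagen they set the width and spacing of fibrils. Several also bind growth factors of the TGF-beta and BMP families or cell surface receptors. In adult kidney, biglycan and decorin are known as products of interstitial and mesangial cells that build up in fibrosis.

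Total counts were 12596249 to 13508257 per library, so that 1 count stood for 0.074 to 0.0794 CPM, the count scaled to the library total, and 3 counts for 0.222 to 0.238 CPM. The stromal markers Pdgfra, Pdgfrb, Foxd1, Meis1, Meis2, Tcf21 and Col1a1 were all among the 14834 genes with enough counts to be tested, and Pdgfra, the receptor used in the sort, averaged 21.1 CPM at high and 30.7 CPM at low adhesion. With litter as a block in edgeR's quasi-likelihood model, 1416 genes passed an adjusted p of 0.05, which is 9.55% of those tested. Of these, 717 (4.83%) were lower and 699 (4.71%) higher at high adhesion. Of the 10 proteoglycan genes, 6 were tested, whereas Prelp, Omd, Kera and Podn fell below the filter on low counts.

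Bgn, which encodes the collagen and TGF-beta binding proteoglycan biglycan, was the 1 member of the 6 tested that passed, and it was lower at high adhesion. The values of Dcn, for decorin, were lower in 3 of 3 litters, but Dcn did not pass. Ogn, Aspn, Fmod and Lum did not pass either, and the direction of each changed between litters. Bgn was an abundant transcript, with a mean CPM above that of 86.6% of tested genes, whereas 7 of the 10 members had at most 124 counts over all 6 libraries.

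To compare levels between genes, CPM were divided by the length of merged exons in kilobases. Bgn had the highest level per length, with 11.2 CPM per kb at high and 20.3 CPM per kb at low adhesion. Next came Ogn, which encodes osteoglycin, at 4.06 CPM per kb at high and 3.62 CPM per kb at low adhesion. Dcn, for decorin, followed with 1.59 CPM per kb at high and 1.85 CPM per kb at low adhesion. Over all 6 libraries these levels did not overlap: Bgn lay between 10.5 and 26.2 CPM per kb, Ogn between 3.20 and 5.03, and Dcn between 1.31 and 2.12. In CPM alone Ogn (mean 9.86) and Dcn (mean 10.0) were alike. Their order per length rests on merged exons of 2.57 kb for Ogn and 5.84 kb for Dcn. Below them were Aspn with a mean of 0.674, Lum with 0.509 and Fmod with 0.400 CPM per kb, whose ranges overlapped from each to the next. The ranges of Omd (mean 0.199 CPM per kb) and Prelp (mean 0.169) also overlapped, and that of Omd reached into the range of Fmod. Podn had a mean of 0.0539 CPM per kb. In 5 of 6 libraries Kera had no count.

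**Figure D1:**
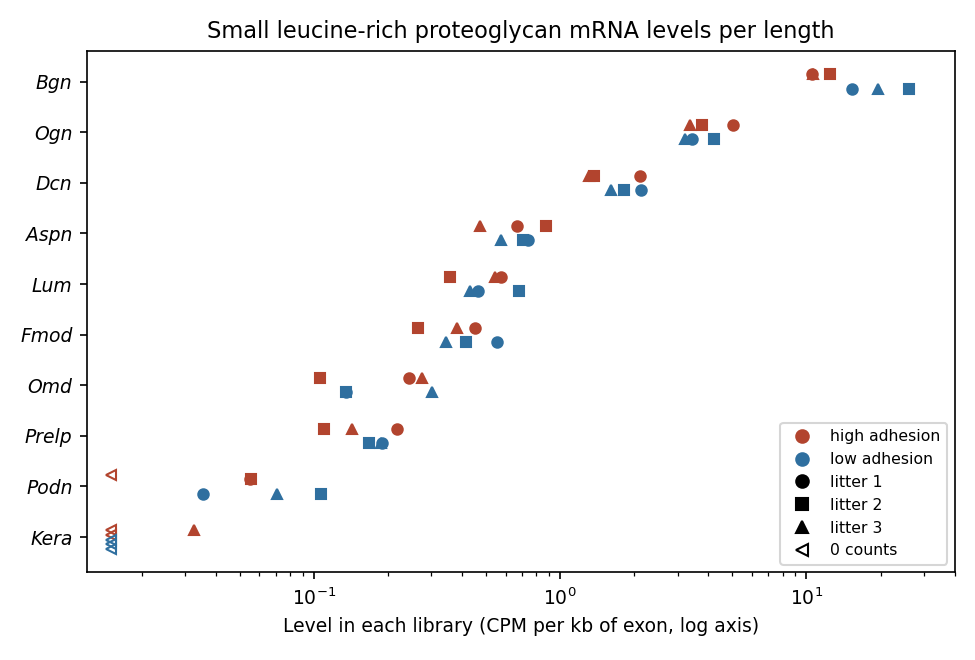
Level of each gene in each of the 6 libraries, in CPM per kb of merged exon on a log axis, with high adhesion libraries in red above low adhesion libraries in blue and open triangles for libraries with 0 counts. Bgn lies above all other members in every library, followed by Ogn and Dcn, and Kera has a count in 1 library.

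Bgn (ENSMUSG00000031375, chromosome X) had 64.0, 76.1 and 64.6 CPM at high adhesion in litters 1, 2 and 3, and 93.5, 159.5 and 119.0 CPM at low adhesion. Every high adhesion library lay below every low adhesion library. The high adhesion libraries lay close together, whereas the low adhesion libraries were spread out, with litter 2 highest. The group means were 68.2 ± 6.79 CPM at high and 124.0 ± 33.3 CPM at low adhesion (SD, n = 3 each). The log2 fold change was -0.84 ± 0.07 (standard error; 95% interval -0.998 to -0.689, edgeR adjusted p = 2.42e-06), a level 1.79-fold lower at high adhesion. Standard errors and intervals here come from the model, which shares variance across genes, and do not measure the spread over the 3 litters. Within litters 1, 2 and 3 the log2 ratio of Bgn was -0.55, -1.07 and -0.88. The ratios of litters 1 and 2 thus lay outside the interval. Among tested genes, 7.6% had groups that did not overlap with high adhesion lower, so the separation of the groups is common in these data. The size of the fall is less common, as 65 of the 14834 tested genes fell further, 53 of them among the 717 called lower.

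Within litters, Bgn at high adhesion was 68.4% of its low adhesion level in litter 1, 47.7% in litter 2 and 54.3% in litter 3. Its level also differed between litters (edgeR F-test, adjusted p = 0.00114), as did 17.9% of tested genes. Without the replicate block the fold change was as large but did not pass in edgeR (log2 fold change -0.86, adjusted p = 0.246). That fit called 36 of all tested genes (0.243%), with 16 lower (0.108%) and 20 higher (0.135%). By contrast, DESeq2 called it with the block (adjusted p = 8.24e-07) and without it (adjusted p = 6.48e-05). In bulk samples, fewer cells that express a gene and less of its RNA per cell cannot be told apart. All 7 markers of nephrogenic stroma also had lower means at high adhesion. Of these, 6 passed in edgeR with the block, beside 4.83% of all tested genes called lower, and Tcf21 did not (adjusted p = 0.0782). Meis1 did not pass without litter 2 (edgeR adjusted p = 0.114) or litter 3 (0.166), nor in DESeq2 with the block (adjusted p = 0.17). In litter 1 Meis1 had 47.3 CPM at high and 46.5 CPM at low adhesion. Without the block 0 of the 7 passed in edgeR, with 6 at an unadjusted p under 0.05, and 1 in DESeq2. Their summed level was 1797 to 1867 CPM at high and 2129 to 2272 CPM at low adhesion. Col1a1, a collagen gene, made up most of these sums, with means of 1376 CPM at high and 1591 CPM at low adhesion. The part of the stromal markers in the fall of Bgn was not tested.

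**Figure D2:**
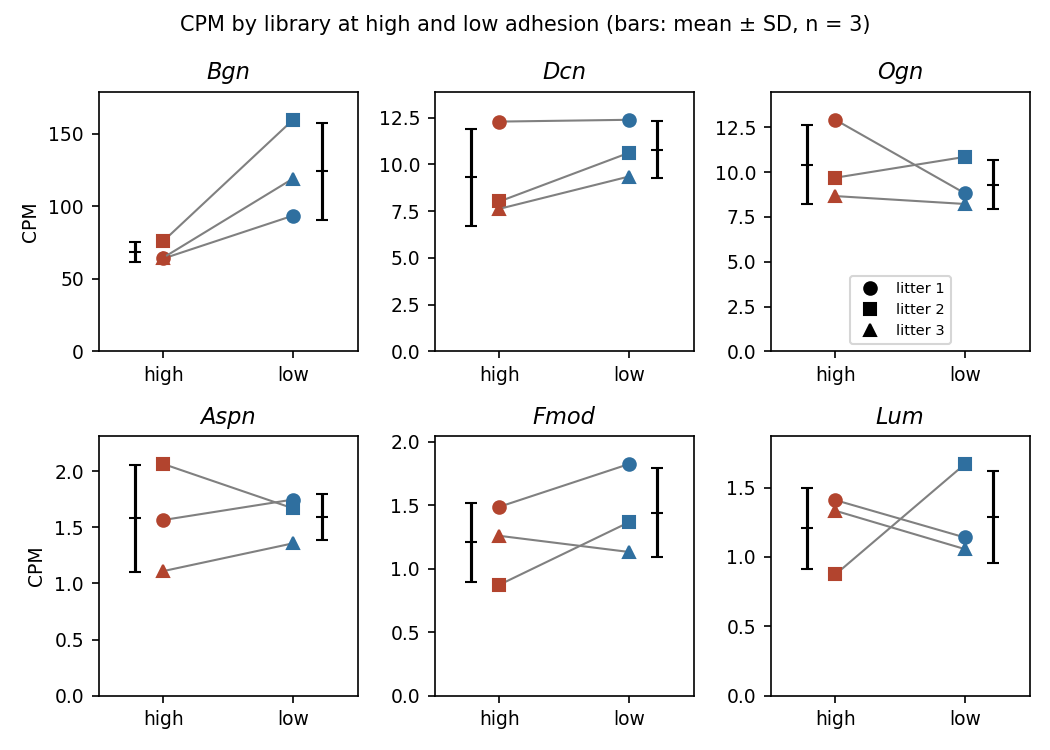
CPM of the 6 tested genes in each library, high adhesion on the left and low adhesion on the right of each panel, with a line for each litter and black bars for mean ± SD (n = 3). The 3 high adhesion values of Bgn lie between 64.0 and 76.1 CPM, below all 3 low adhesion values, while the groups overlap in the other panels.

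The promoter of Bgn, the called gene, is shown beside that of Ogn, the member next in level per length, to let a reader compare their base composition. RefSeq windows from 250 bases before to 50 bases after the start of the gene, in build GRCm38.p6, were at hand for 8 of the 10 genes. The counts were made on build GRCm39, so these coordinates belong to the RefSeq table alone. Capitals mark the motifs found, searched on both strands, among the TATA box (TATAAA), the GC box (GGGCGG), an AP-1 site (TGANTCA), a TEAD site (GGAATG) and the CArG box. In Ogn a TATAAA on each strand overlap in 1 run of capitals, and the 3 GC boxes of Bgn lie on the minus strand, with the last 2 overlapping.
Bgn, chrX:73483351-73483650, plus strand: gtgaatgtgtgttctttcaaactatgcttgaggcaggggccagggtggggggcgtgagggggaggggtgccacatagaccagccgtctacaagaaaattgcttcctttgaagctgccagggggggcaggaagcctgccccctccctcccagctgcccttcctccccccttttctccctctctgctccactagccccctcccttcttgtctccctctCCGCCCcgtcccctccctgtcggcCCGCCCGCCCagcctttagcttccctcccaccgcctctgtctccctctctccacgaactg
Ogn, chr13:49607765-49608064, plus strand: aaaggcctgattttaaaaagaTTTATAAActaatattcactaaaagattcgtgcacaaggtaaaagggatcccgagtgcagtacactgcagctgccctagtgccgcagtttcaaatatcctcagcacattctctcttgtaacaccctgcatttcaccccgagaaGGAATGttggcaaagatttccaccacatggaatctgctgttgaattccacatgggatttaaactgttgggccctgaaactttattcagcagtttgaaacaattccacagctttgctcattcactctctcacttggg

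The Bgn window is 63.7% G and C, above 79.1% of the 32851 windows in the table, and holds 3 GC boxes, a motif present in 35.7% of all windows. The Ogn window is 42.3% G and C, above 14.9% of windows, and holds no GC box. It has TATAAA on both strands, a motif in 13.6% of windows, from base -229 of the gene's start, and GGAATG, a motif in 14.7%, at base -86. Neither window holds the AP-1 motif (7.81% of windows) or the CArG box (1.63%). These matches describe the letters of the window and show no binding.

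Dcn (ENSMUSG00000019929, chromosome 10) encodes decorin, the closest relative of biglycan, which coats collagen fibrils and binds TGF-beta and the receptors EGFR and MET. It had 12.3, 8.02 and 7.62 CPM at high adhesion in litters 1, 2 and 3, and 12.4, 10.6 and 9.35 CPM at low adhesion. The groups overlapped, since litter 1 was high on both substrates. Dcn and Bgn were the 2 of 6 tested members lower in 3 of 3 litters, as were 20.2% of all tested genes. The log2 ratio of high to low adhesion was -0.01 in litter 1, -0.41 in litter 2 and -0.29 in litter 3. The log2 fold change was -0.22 ± 0.11 (standard error; 95% interval -0.44 to 0.0025, edgeR adjusted p = 0.236). Dcn differed between litters (edgeR F-test, adjusted p = 0.00944). Litter 1 gave the highest Dcn value on each substrate, whereas it gave the lowest Bgn value at low adhesion. At high adhesion Bgn was nearly equal in litters 1 and 3, at 64.0 and 64.6 CPM.

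Asporin, encoded by Aspn (ENSMUSG00000021388, chromosome 13), is the third member of the group of biglycan and decorin and binds TGF-beta and BMP2. It had 1.57, 2.06 and 1.11 CPM at high adhesion in litters 1, 2 and 3, and 1.75, 1.67 and 1.36 CPM at low adhesion. The groups overlapped and the direction changed between litters. The log2 fold change was -0.02, with a 95% interval of -0.52 to 0.49 (edgeR adjusted p = 0.98), so a change of the size seen for Bgn lies outside the interval.

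Ogn (ENSMUSG00000021390, chromosome 13) encodes osteoglycin, also called mimecan, which takes part in collagen fibril assembly. It had 12.9, 9.69 and 8.66 CPM at high adhesion in litters 1, 2 and 3, and 8.81, 10.8 and 8.22 CPM at low adhesion. It was higher at high adhesion in 2 of 3 litters, and the library of litter 1 at high adhesion stood above the other 5. The log2 fold change was 0.16 ± 0.12 (standard error; 95% interval -0.09 to 0.41, edgeR adjusted p = 0.494). Without litter 1 it was -0.046, and without litter 2 it was 0.32 (edgeR adjusted p = 0.146).

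Lumican and fibromodulin, encoded by Lum (ENSMUSG00000036446, chromosome 10) and Fmod (ENSMUSG00000041559, chromosome 1), carry keratan sulphate and compete for a binding region on type I collagen. Lum had 1.41, 0.873 and 1.33 CPM at high adhesion in litters 1, 2 and 3, and 1.14, 1.67 and 1.06 CPM at low adhesion. It was higher at high adhesion in litters 1 and 3 and lower in litter 2. Fmod had 1.49, 0.873 and 1.26 CPM at high adhesion, and 1.82, 1.37 and 1.13 CPM at low adhesion. It was lower at high adhesion in litters 1 and 2. Neither passed (edgeR adjusted p = 0.906 for Lum and 0.674 for Fmod). With 98 counts in all for Lum and 104 for Fmod, their 95% intervals of log2 fold change ran from -0.69 to 0.51 and from -0.80 to 0.30. For Fmod the estimate for Bgn is just outside the interval, and a slightly smaller fall lies within it.

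**Figure D3:**
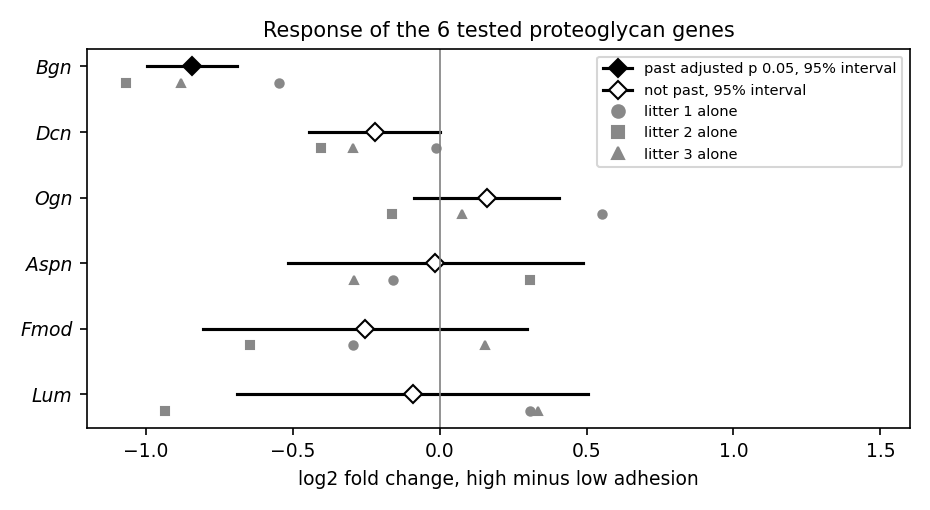
Log2 fold change, high minus low adhesion, of the 6 tested genes with 95% intervals (diamonds, filled where the adjusted p was under 0.05) and the log2 ratio within each litter (grey symbols). The interval of Bgn ends at -0.69, while those of the other 5 genes include 0. Intervals come from the model, which shares variance across genes, and the Bgn ratios of litters 1 and 2 lie outside its interval.

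The 4 members below the filter gave 1 to 48 counts over all libraries and no test. Prelp (ENSMUSG00000041577) encodes a proteoglycan whose basic amino terminus binds heparan sulphate, and had 10, 5 and 7 counts at high adhesion in litters 1, 2 and 3, and 9, 8 and 9 counts at low adhesion. Omd (ENSMUSG00000048368) encodes osteomodulin, a keratan sulphate proteoglycan of bone, and had 7, 3 and 8.33 counts at high and 4, 4 and 9 counts at low adhesion. The groups overlapped for both genes. Podn (ENSMUSG00000028600), for podocan, had 3, 3 and 0 counts at high and 2, 6 and 4 counts at low adhesion. Kera (ENSMUSG00000019932), for the corneal proteoglycan keratocan, had 1 count in the high adhesion library of litter 3 and none elsewhere, where 3 counts set a limit of 0.226 to 0.238 CPM. These limits cover counting error only.

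Several members stand next to each other in the mouse genome, in the order of RefSeq's GRCm38.p6. Dcn, Lum and Kera are neighbours on chromosome 10, with Epyc, a related gene, after Kera. On chromosome 13 the order is Ecm2, Aspn, Omd and Ogn, all related, and on chromosome 1 it is Optc, Prelp and Fmod. Levels differed widely among neighbours: beside Dcn and Ogn, which held 788 and 772 counts in all, stood Lum with 98, Kera with 1 and Omd with 35.3 counts. The related neighbours Epyc, Optc and Ecm2 had 2, 20 and 17 counts at high adhesion and 0, 10 and 15 at low adhesion, summed over the 3 libraries of each group, too few to be tested. Ogn, Aspn and Omd lie within the span of the gene Cenpp, and no strand setting of the counting is given, so reads of Cenpp cannot be fully told apart from theirs. Bgn and Podn have no related gene beside them. The deposited Bgn counts end in a fraction in 3 of 6 libraries, so at least some reads there were shared out between features, by a rule that is not given.

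The summed level of the 10 genes was 95.2, 98.4 and 85.8 CPM at high adhesion in litters 1, 2 and 3, and 120.6, 187.0 and 141.8 CPM at low adhesion. The groups did not overlap. Without Bgn the sum was 31.2, 22.4 and 21.2 CPM at high adhesion, and 27.1, 27.5 and 22.8 CPM at low adhesion. These sums overlapped, with means of 24.9 ± 5.48 CPM at high and 25.8 ± 2.62 CPM at low adhesion (SD, n = 3 each). The sums of the groups were thus separate only with Bgn included. The median log2 fold change of the 6 tested members was -0.16, beside -0.0012 over all tested genes.

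Genes around the proteoglycans were described from lists. Of 16 tested fibrillar and fibril-associated collagen genes, whose products these proteoglycans bind, 6 fell (beside 4.83% of all tested genes) and 0 rose (beside 4.71%), with a median log2 fold change of -0.18. Col3a1 had 254.6 ± 39.1 CPM at high and 323.7 ± 71.7 CPM at low adhesion, a log2 fold change of -0.34 (edgeR adjusted p = 4.01e-06). For Col1a1, a chain of type I collagen and the most abundant gene of the list, the values were 1376 ± 40.7 CPM at high and 1591 ± 65.3 CPM at low adhesion (SD, n = 3 each), a log2 fold change of -0.21. The cartilage collagen gene Col2a1, with 367 counts in all, fell by 0.77 on the log2 scale. It did not pass in DESeq2 with the block (adjusted p = 0.158). Col6a3, for a chain of microfibrillar type VI collagen, fell by 0.35, and did not pass without litter 2 (edgeR adjusted p = 0.16). Col1a2 and Col5a2 also fell and are named to complete the count, after their values were seen. Col1a2 did not pass without litter 2 (edgeR adjusted p = 0.177) or litter 3 (edgeR adjusted p = 0.0806), nor Col5a2 without litter 3 (edgeR adjusted p = 0.345). Without the replicate block edgeR called 0 of the 16, with 3 at an unadjusted p under 0.05, and DESeq2 with the block called 2.

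Genes for the enzymes that build the sugar chains stand beside 4.83% of all tested genes called lower and 4.71% called higher. The counts called below are a description and set neither list apart from all tested genes. Of 22 tested genes of chondroitin and dermatan sulphate synthesis, Chst11, a chondroitin sulphotransferase, fell by 0.24 as a log2 difference (edgeR, adjusted p = 0.0106) and 21 did not pass. Without litter 1 Chst11 did not pass (adjusted p = 0.101). The median of the list was -0.08. Of 6 tested genes of keratan sulphate synthesis, 0 passed in edgeR, with 1 (B4galt4) at an unadjusted p under 0.05, and 0 in DESeq2. The most abundant of them, the galactosyltransferase gene B4galt1, had 54.3 ± 3.12 CPM at high and 55.5 ± 2.60 CPM at low adhesion (SD, n = 3 each), and B3gnt2, which extends such chains, had 13.49 ± 3.79 CPM at high and 14.4 ± 4.90 CPM at low adhesion.

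Of 11 tested proteases and protease enhancers of these matrix proteins, 1 rose and 2 fell, beside 9.55% of all tested genes called in either direction. Without the replicate block edgeR called 0 of the 11, with 1 (Adamts5, adjusted p = 0.399) at an unadjusted p under 0.05, and DESeq2 with the block called 1. Adamts5, a protease that cuts large proteoglycans, rose to 82.2 ± 16.9 CPM at high adhesion, against 56.3 ± 7.84 CPM at low adhesion (SD, n = 3 each, edgeR adjusted p = 2.54e-06). Pcolce2, an enhancer of procollagen cleavage, fell by 0.40 on the log2 scale, and the collagenase gene Mmp13 by 0.47. Neither passed without litter 1 (adjusted p = 0.0961 for Pcolce2 and 0.752 for Mmp13).

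Ligands and receptors bound by biglycan, decorin or their relatives went both ways, with 5 higher, 6 lower and 8 not passing of 19 tested, beside 4.71% higher and 4.83% lower of all tested genes. Ccn4, which encodes a secreted matricellular protein, had 73.9, 107.2 and 82.1 CPM at high adhesion in litters 1, 2 and 3, and 114.2, 176.0 and 158.3 CPM at low adhesion. Its log2 fold change was -0.77 ± 0.05 (standard error, edgeR adjusted p = 5.67e-10). Lrp1, for an endocytic receptor that takes up decorin, had 58.9 ± 3.78 CPM at high and 89.9 ± 2.69 CPM at low adhesion (SD, n = 3 each), and passed without the replicate block (adjusted p = 0.0209). Tgfb2 rose by 0.38 and Bmp6 by 0.86 on the log2 scale. The other calls were Bmp2, Egfr and Igf1r, higher, and Tgfb1, Cd14, Itga1 and Itga2, lower, which complete the counts and were named after their values were seen. Without litter 2, Egfr (edgeR adjusted p = 0.0607), Igf1r (0.339) and Itga1 (0.502) did not pass. Itga1 also did not pass without litter 1 (edgeR adjusted p = 0.17) or among genes of at least 5 CPM (edgeR adjusted p = 0.0595), and in litter 3 it had 16.7 CPM at high and 15.2 CPM at low adhesion. Without the replicate block 1 of the 19 passed, and DESeq2 with the block called 5.

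In a list of other matrix proteoglycans, 4 of 10 tested genes fell, beside 4.83% of all tested genes, and 0 rose. The list also held Smoc1 and Smoc2, genes of calcium-binding matrix proteins rather than proteoglycans, and Smoc2 is 1 of the 4. Without the replicate block 0 of the 10 passed in edgeR, with 5 at an unadjusted p under 0.05, and 1 in DESeq2. Smoc2, for a secreted calcium-binding matrix protein, had 99.6 ± 23.6 CPM at high and 165.2 ± 9.29 CPM at low adhesion, and Esm1, for the dermatan sulphate proteoglycan endocan, had 18.4 ± 4.21 CPM at high and 27.2 ± 4.22 CPM at low adhesion (SD, n = 3 each). Vcan, for the large chondroitin sulphate proteoglycan versican, fell by 0.57 as a log2 difference (edgeR, adjusted p = 0.000431), and Acan, for aggrecan, by 0.19. Acan did not pass without litter 1 (adjusted p = 0.174) or litter 3 (adjusted p = 0.296). Of 8 further genes for small leucine-rich repeat matrix proteins 3 were tested, and 0 passed in edgeR or DESeq2, with 0 at an unadjusted p under 0.05 in either. Tsku, for tsukushi, had 18.8 ± 1.597 CPM at high and 16.6 ± 1.20 CPM at low adhesion, and Chad, for chondroadherin, 2.96 ± 0.118 CPM at high and 3.06 ± 0.942 CPM at low adhesion (SD, n = 3 each).

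**Figure D4:**
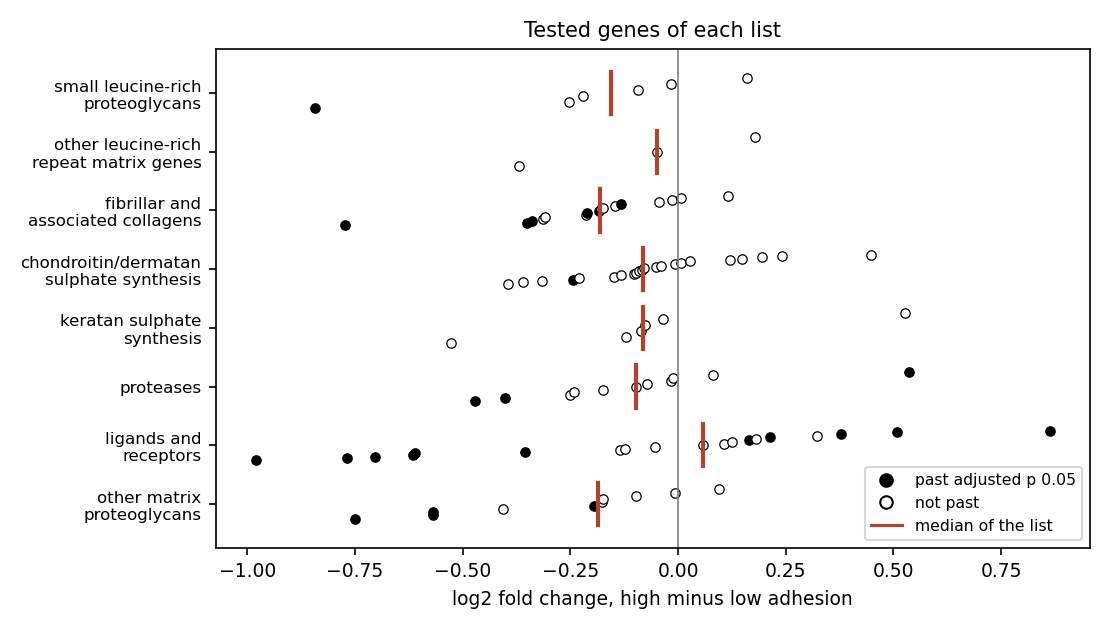
Log2 fold change, high minus low adhesion, of each tested gene in the 8 lists, with filled circles for genes past an adjusted p of 0.05 and a red line at the median of each list. Bgn is the only filled circle among the small leucine-rich proteoglycans, at -0.84, and the ligands and receptors have filled circles on both sides of 0.

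Markers of other cell types were measured in the same libraries, and no marker gene of any list was at 0 in all 6. Sums are over the whole of each list, tested or not. Calls, here and in the paragraphs on markers that follow, stand beside 9.55% of all tested genes called, 4.83% lower and 4.71% higher. With so few tested genes per list, a single call is no result about its list. The 5 epithelial markers summed to 26.1 to 31.4 CPM at high and 16.1 to 21.998 CPM at low adhesion, without overlap, and of 4 tested Krt8 was called, higher. Krt8 made up the largest part of these sums, with means of 17.9 CPM at high and 9.76 CPM at low adhesion. Epcam, Cdh1 and Pax8 had higher means at high adhesion but did not pass, and Ret was below the filter. The sums of the lists that follow overlapped between the groups, and without the replicate block edgeR called 0 genes of any list of markers. The 5 pericyte and smooth muscle markers summed to 32.6 to 47.8 CPM at high and 45.5 to 48.3 CPM at low adhesion, and all were tested. Rgs5 and Cspg4 passed as lower and Myh11 as higher, but DESeq2 with the block called 0 of them. Without litter 2, Myh11 (edgeR adjusted p = 0.473) and Rgs5 (0.0508) did not pass, nor did Cspg4 without litter 3 (0.181).

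The 6 tendon, cartilage and bone markers, of cells rich in these proteoglycans, summed to 62.9 to 92.1 CPM at high and 73.8 to 99.5 CPM at low adhesion. Of 4 tested, Scx passed as higher and Runx2 as lower, and Tnmd and Sp7 were below the filter. Scx did not pass without litter 1 (edgeR adjusted p = 0.338) or litter 3 (0.135). The 5 nephron progenitor markers summed to 51.5 to 67.8 CPM at high and 45.8 to 61.5 CPM at low adhesion, and Cited1 passed as higher, though not without litter 3 (edgeR adjusted p = 0.188). The 4 podocyte markers summed to 4.19 to 8.18 CPM at high and 4.32 to 6.06 CPM at low adhesion. Of the 2 tested, Podxl had a log2 fold change of 0.60 and passed, though not without litter 1 (edgeR adjusted p = 0.268), and Synpo had one of -0.60 (edgeR adjusted p = 0.114). The 5 leukocyte markers summed to 21.5 to 49.6 CPM at high and 21.1 to 41.7 CPM at low adhesion, and Lyz2 passed as higher, though not without litter 1 (edgeR adjusted p = 0.282). The 6 endothelial markers summed to 36.4 to 44.7 CPM at high and 41.5 to 52.3 CPM at low adhesion, and of 5 tested Emcn passed as lower, though not without litter 3 (edgeR adjusted p = 0.0536).

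The 5 erythroid markers summed to 133.4 to 270.4 CPM at high and 162.1 to 255.1 CPM at low adhesion, and 0 of 3 tested passed in edgeR or DESeq2, with 0 at an unadjusted p under 0.05. Hba-a1, for alpha globin, had 45.8, 56.2 and 92.1 CPM at high adhesion in litters 1, 2 and 3, and 90.2, 85.97 and 56.97 CPM at low adhesion. It was thus lower at high adhesion in litters 1 and 2 and higher in litter 3, and without litter 3 all 3 tested globin genes were called (Hba-a1 log2 fold change -0.79, edgeR adjusted p = 4.52e-22). That fit rests on litters 1 and 2 alone, so its p does not measure replication over litters. With all 3 litters the log2 fold change of Hba-a1 was -0.28 ± 0.49 (standard error). The 3 corneal keratocyte markers, Kera among them, summed to 0.740 to 1.11 CPM at high and 0.760 to 1.21 CPM at low adhesion, and the 1 tested did not pass. The part of these cells in the level of the proteoglycan genes was not tested.

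Over 10201 other genes averaging 5 CPM or more, those whose log2 CPM, centred on their own mean, lay nearest to Bgn over the 6 libraries were Bmper, Ccn4 and Cplx2. Their root mean square differences from Bgn were 0.102, 0.119 and 0.129, against a median of 0.489 over all genes compared. Bmper, which encodes a secreted BMP-binding protein, had 20.1, 29.1 and 20.3 CPM at high adhesion in litters 1, 2 and 3, and 29.4, 50.5 and 38.0 CPM at low adhesion. Cplx2, for a regulator of exocytosis, had 6.26, 6.39 and 5.74 CPM at high and 10.4, 14.6 and 12.1 CPM at low adhesion. In all 4 genes litter 2 gave the highest value at each substrate. The nearness was measured on the libraries that gave the fold changes and is a description.

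**Figure D5:**
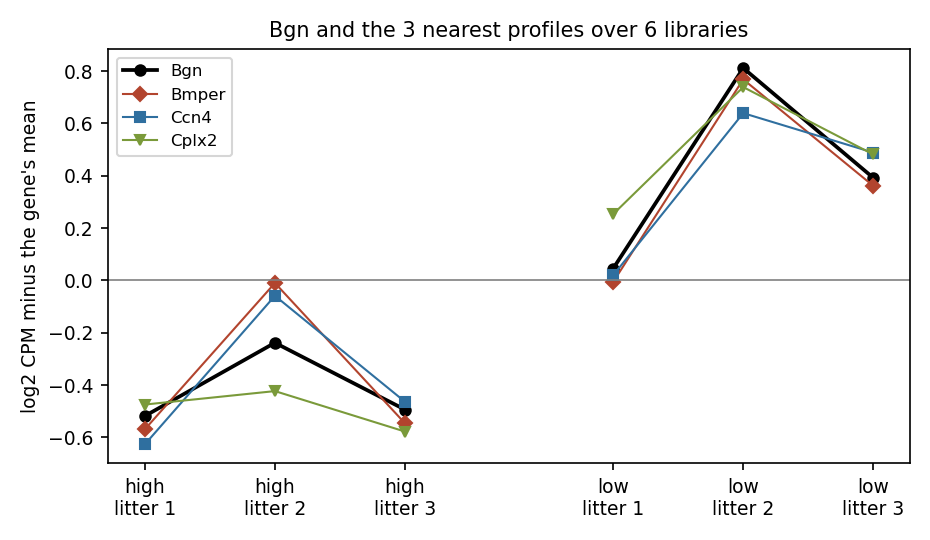
Log2 CPM minus the mean of each gene, over the 3 high adhesion libraries on the left and the 3 low adhesion libraries on the right, for Bgn (black) and the 3 genes nearest to it. In all 4 genes litter 2 is highest within each group and every high adhesion value lies below the low adhesion value of its litter.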

How the data were processed

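Per the labels' protocols, a commercial service prepared 6 tagmented libraries from captured mRNA. The submitters' processing notes name STAR 2.7.11, featureCounts in Subread 2.1.1, build GRCm39, fastp 0.24.0, FastQC 0.12.1, MultiQC 1.32 and SAMtools 1.22.1. Annotation release, strand setting and sharing of reads: not given in the sources used here. Estimated counts per gene, deposited unscaled, had fractional values in 7736 to 8256 genes per library. The deposited CPM matched recomputation from these counts to within 5.1e-11. Printed CPM are the deposited CPM.

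Counts were rounded, and edgeR 4.0.16 (R 4.3.3) was run with filterByExpr (minimum count 10), TMM scaling (factors 0.988 to 1.01), a robust quasi-likelihood fit with litter as block, and Benjamini-Hochberg adjustment over 14834 genes, two-sided. The design text states litter-matched samples. Same-litter libraries deviated together (correlations 0.575, 0.576 and 0.361 across genes, against -0.488 to -0.084 between litters). Alternatives used DESeq2 1.42.0 and limma 3.58.1. Replicates are separate litters. An exact permutation test of 3 against 3 libraries cannot go below p = 0.1, or p = 0.25 within 3 pairs, so none is given. The test was checked on simulated data. Exon lengths came from GENCODE M21 (GRCm38) by gene identifier, found for all 10 members; whether reads cover whole transcripts is not given, which could shift levels per length. Sequences are RefSeq's.

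Members and lists were chosen with earlier results of these data known. Beyond the members, the text names up to 4 called genes per list of lowest adjusted p, or the 2 of highest CPM where none was called, the 3 genes nearest to Bgn, and related chromosomal neighbours.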

Additional observations from a re-analysis of the deposited data

How the results depend on the processing

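Bgn was lower at high adhesion in all 10 alternatives (log2 fold change -0.97 to -0.73) and was called in 9 of them; without the replicate block in edgeR it was -0.86 (adjusted p = 0.246). None of the other 5 tested members was called in any alternative that gave an adjusted p, and Dcn stayed below 0 in each (-0.35 to -0.15). Leaving out 1 litter at a time gave log2 fold changes of -0.30 to 0.30 for Lum, -0.046 to 0.32 for Ogn and -0.23 to 0.086 for Aspn, so their directions are not settled. DESeq2 with the block gave no adjusted p for Lum, Fmod and Aspn. Of all genes, 36 passed without the replicate block (1359 at an unadjusted p under 0.05), 406 in DESeq2 with it, 122 in DESeq2 without it, and 908 to 1553 with 1 litter left out. Without the replicate block edgeR called 0 proteoglycan members, 0 collagens, 0 genes of chondroitin sulphate synthesis, 0 proteases, 1 ligand or receptor and 0 other matrix proteoglycans. DESeq2 with the block called 2 collagens, 0 genes of chondroitin sulphate synthesis, 1 protease and 5 ligands or receptors. Without the block it called 0, 0, 0 and 3 of these, and 1 gene (Smoc2) of the list of other matrix proteoglycans. With 1 litter left out, 0 to 2 chondroitin sulphate genes were called and 3 to 6 genes of the list of other matrix proteoglycans. The DESeq2 likelihood ratio test found 866 genes that differ between litters in place of 2655, and 0 of the proteoglycan genes in place of 2. The cause of these differences was not tested. Depth limits the members other than Bgn, Dcn and Ogn, which have at most 124 counts each over 6 libraries.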

Other observations

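The direction of the proteoglycan genes differed by litter in a way chosen after the values were seen and not tested. In litter 2, 8 of the 10 members were lower at high adhesion and 1 was higher, beside 53.8% of tested genes lower. In litter 1, 4 were lower and 5 higher, beside 45.6%, and in litter 3, 6 were lower and 4 higher, beside 49.0%. The members counted include Prelp, Omd, Kera and Podn, which are not among the tested genes behind these shares. Counts of these genes are too low to settle a direction. In litter 2, Prelp had 5 counts at high and 8 at low adhesion, Omd 3 and 4, and Podn 3 and 6.

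The ratio of Ogn to Dcn CPM, also picked after the values were seen, was 1.05, 1.21 and 1.14 at high adhesion in litters 1, 2 and 3, and 0.712, 1.02 and 0.879 at low adhesion. The groups did not overlap, although neither gene passed on its own, and the ratio was not tested. The nearest values were 1.05 at high adhesion in litter 1 (165 counts of Ogn, 157 of Dcn) and 1.02 at low adhesion in litter 2 (143 and 140). Counts of this size cannot tell these ratios apart. Among single tested genes, 15.4% had groups that did not overlap, in either direction. The share of gene pairs that separate in this way was not computed.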
